A study of Mus musculus with 24 samples.

Results

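The genes described here are 9 components, regulators and receptors of the complement system in the mouse brain, namely C1qa, C1qb, C1qc, C3, C4b, Cfb, C3ar1, C5ar1 and Serping1. They were taken by gene name from a table of 54532 genes, and each name matched 1 row. The brains came from 24 young adult male wild-type C57Bl6 mice in 4 groups of 6. An osmotic minipump delivered saline (vehicle) or 0.7 mg/kg/d of angiotensin II for 2 weeks. A further group on either infusion was injected with human amnion epithelial cells (AEC) through the tail vein. According to the methods, mice not given cells had saline injected there. Angiotensin II is a peptide hormone that raises blood pressure, and amnion epithelial cells come from the membrane around the fetus. The comparisons ask which brain transcripts differ in hypertension and which differ after the cells are given. RNA was taken from whole brain hemispheres, so a lower value cannot be told apart as fewer cells of a type or less RNA per cell.

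Complement is a cascade of plasma proteins that marks targets for removal by phagocytes. C1q, built from the products of C1qa, C1qb and C1qc, starts the classical pathway, in which C4b and C2 form the enzyme that cleaves C3, while factor B (Cfb) forms the corresponding enzyme of the alternative pathway. Serping1 encodes the C1 inhibitor, and C3ar1 and C5ar1 encode the receptors for the fragments C3a and C5a. In the brain, microglia and macrophages at the brain's borders are the main source of C1q, and C1q and C3 are known for tagging synapses that microglia then remove.

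The 3 C1q genes lie side by side on the minus strand of chromosome 4 (GRCm38). C1qb spans 136880129 to 136886187, C1qc spans 136889804 to 136893065, and C1qa spans 136895917 to 136898803. C4b (34728380 to 34743882), Cfb (34856374 to 34862518) and C3 (57203970 to 57228136) are on chromosome 17. Serping1 is on chromosome 2 (84765387 to 84775444), C3ar1 on chromosome 6 (122847138 to 122856161) and C5ar1 on chromosome 7 (16246743 to 16259540). All 9 are protein-coding genes on the minus strand.

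RefSeq promoter windows, from 250 bases before to 50 bases after the annotated start, were held here for 5 of the 9 genes (C1qb, C1qc, C3, C3ar1 and C5ar1; GRCm38.p6). They were searched on both strands for GAGGAA, the core letters bound by PU.1, a transcription factor of macrophages and microglia. These letters were found in C1qb, starting 30 bases before the start on the gene's strand, and in C1qc, 193 bases before it on the opposite strand. The same letters occur in 28.3% of all 32851 promoters in the table. The 2 windows are shown because they belong to neighbouring C1q genes whose levels are compared below, with the match in capitals. The C1qb run is chr4:136886201-136886450 and the C1qc run is chr4:136893066-136893164, both written 5′ to 3′ on the minus strand. The C1qc run is the 99 bases of the window that lie outside the gene span given above, because RefSeq places the start of C1qc inside that span. The positions given for the matches are counted from the RefSeq starts.
C1qb: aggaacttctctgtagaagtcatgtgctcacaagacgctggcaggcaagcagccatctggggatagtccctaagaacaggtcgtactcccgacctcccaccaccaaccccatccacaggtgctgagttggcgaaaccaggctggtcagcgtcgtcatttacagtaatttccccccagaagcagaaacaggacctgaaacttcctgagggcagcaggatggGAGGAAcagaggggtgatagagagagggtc
C1qc: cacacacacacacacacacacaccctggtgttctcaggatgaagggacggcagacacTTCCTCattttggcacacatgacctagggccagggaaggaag
The interferon response element core GAAANNGAA, present in 8.56% of promoters, was found in 1 of the 5 windows, that of C5ar1, 66 bases before the start on the opposite strand. The STAT site TTCNNNGAA, present in 8.30% of promoters, was in none of them.

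Each value is the FPKM, the fragments counted on a gene scaled to the length of the gene and the size of the library. The reads behind the values could be recovered and totalled 16536449 to 25308700 per mouse. By total FPKM the libraries fell into 2 sets that are not treatment groups and that the labels do not name. The larger set of 18 mice had totals of 277116 to 298301 and the smaller set of 6 mice had totals of 338334 to 348597. The smaller set held 2 vehicle mice (replicates 5 and 6), 1 angiotensin II mouse (replicate 5), 1 vehicle + AEC mouse (replicate 6) and 2 angiotensin II + AEC mice (replicates 5 and 6). Nothing states that replicate mice differ in litter or batch, so the p-values measure the spread between these samples. The defining markers of microglia were present in every group, with a summed FPKM over 10 genes of 84.7 to 96.0 with vehicle, 88.7 to 93.0 with angiotensin II, 87.8 to 94.7 with vehicle + AEC and 86.1 to 95.0 with angiotensin II + AEC.

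C1qa was the most abundant member, with a mean FPKM over the 24 mice of 48.5 ± 14.7 (SD, n = 24). It was followed by C1qb (45.4), C1qc (21.0), C4b (5.75), Serping1 (5.74), C3ar1 (0.442), C3 (0.427), C5ar1 (0.426) and Cfb (0.0371). The level of Cfb may be undercounted, since most of its exonic bases are shared with another gene model, as given below. Single mice kept this order between C1qb and C1qc, between C1qc and C4b, between Serping1 and C3ar1, and between C5ar1 and Cfb in 24 of 24 cases. The other neighbours were not ordered the same way in every mouse. C1qa exceeded C1qb in 18 of 24 mice, C4b exceeded Serping1 in 16, C3ar1 exceeded C3 in 14 and C3 exceeded C5ar1 in 13. The recognition subunits of the classical pathway were far above the central component C3 and both anaphylatoxin receptors in all mice.

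**Figure D1:**
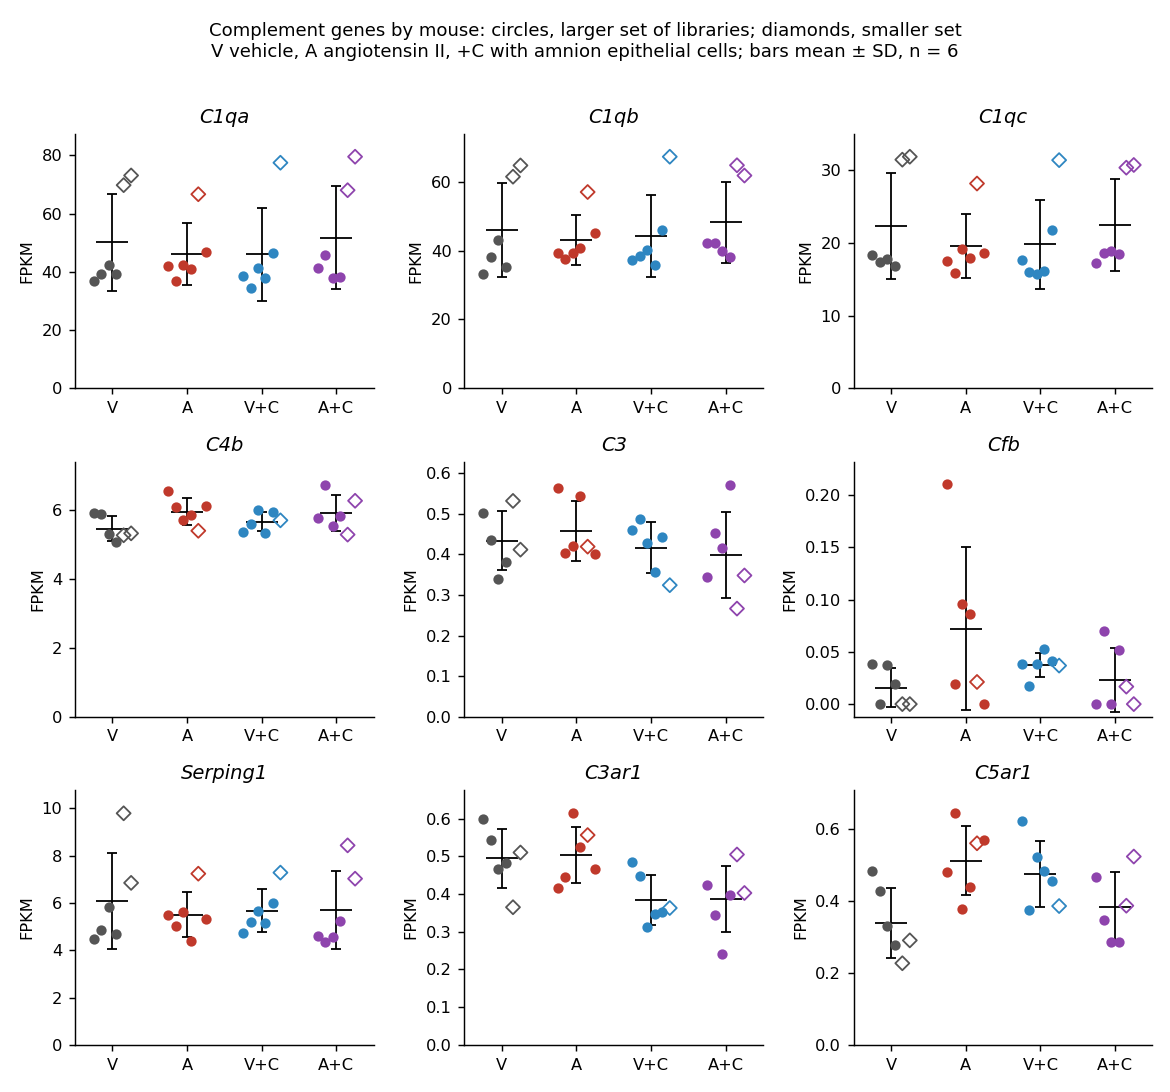
FPKM of the 9 complement genes in each mouse (y axis, linear, one panel per gene) by group (x axis), with the mean ± SD of 6 mice as black bars; filled circles are mice of the larger set of libraries and open diamonds are mice of the smaller set. The diamonds lie above all circles for C1qa, C1qb, C1qc and Serping1, and groups overlap for every gene.

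C1qa, which encodes the A chain of C1q, had a lowest, median and highest FPKM of 36.8, 40.9 and 73.1 with vehicle and of 37.0, 42.3 and 66.7 with angiotensin II. With vehicle + AEC the values were 34.3, 40.0 and 77.5, and with angiotensin II + AEC they were 38.0, 43.4 and 79.6. In every group the highest mice were those of the smaller set of libraries. C1qb, the B chain, had means of 46.0 ± 13.7 with vehicle, 43.2 ± 7.26 with angiotensin II, 44.1 ± 11.9 with vehicle + AEC and 48.2 ± 11.9 with angiotensin II + AEC (SD, n = 6 each). For C1qc, the C chain, the means were 22.3 ± 7.28, 19.6 ± 4.35, 19.8 ± 6.11 and 22.4 ± 6.33 in the same order. The 4 group means of each chain lay within 1 SD of each other.

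Between the sets of libraries, the C1q chains differed far more than between treatments. C1qa had a mean FPKM of 40.5 ± 3.47 (34.3 to 46.9, SD, n = 18) in the larger set and of 72.4 ± 5.22 (66.7 to 79.6, n = 6) in the smaller set. C1qb went from 39.5 ± 3.35 to 62.8 ± 3.57 and C1qc from 17.8 ± 1.46 to 30.6 ± 1.33. The C1 inhibitor gene Serping1 went from 5.06 ± 0.512 to 7.77 ± 1.13. For these 4 genes the sets did not overlap. The sets were drawn by the total FPKM of these same libraries, so the p-values between them describe the split and are not independent evidence. With the treatment group in the fit, the smaller set was higher by 0.84 on the log2 scale for C1qa (SE 0.0569, limma adjusted p = 9.8e-12), 0.67 for C1qb (SE 0.0536, adjusted p = 1.5e-10), 0.78 for C1qc (SE 0.0511, adjusted p = 6.3e-12) and 0.62 for Serping1 (SE 0.0737, adjusted p = 1.3e-07). The remaining 5 members overlapped between the sets and did not pass an adjusted p of 0.05, with log2 differences from -0.25 (Cfb) to 0.04 (C3ar1). With voom on the recovered reads C4b passed, at -0.12 with an adjusted p of 0.038. Of all 27286 genes tested, 53.3% passed this test and 27.5% did not overlap between the sets, against 4 of 9 members in each case.

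**Figure D2:**
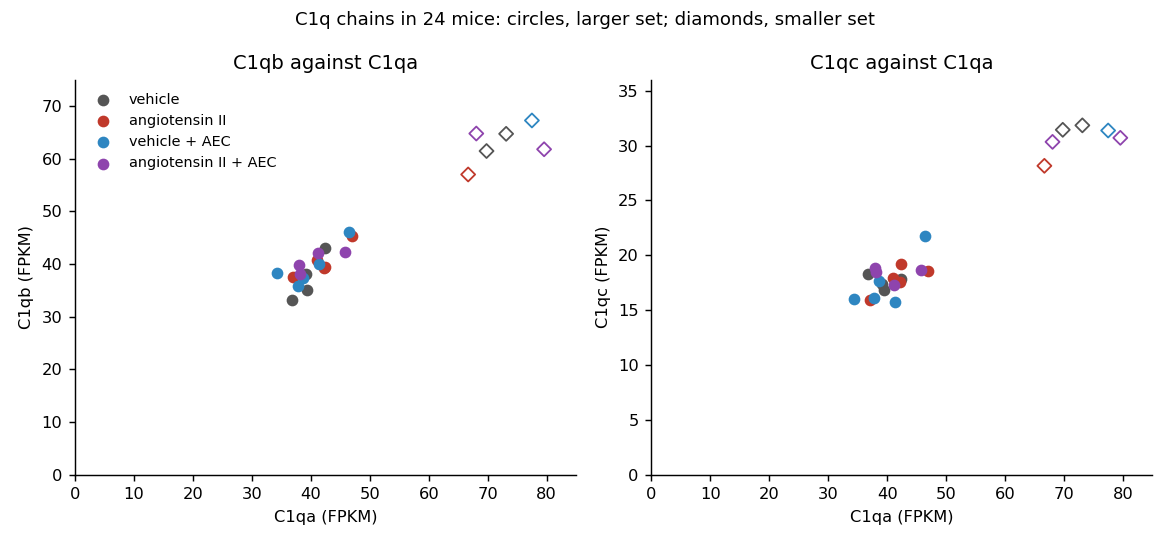
FPKM of C1qb (left) and C1qc (right) against C1qa in the 24 mice, on linear axes; colours mark the 4 treatment groups, filled circles the larger and open diamonds the smaller set of libraries. Mice of all 4 groups are found in both clouds, and C1qa runs from 34.3 to 46.9 in one and from 66.7 to 79.6 in the other.

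The difference between the sets moved with gene length over the whole table. The sets were drawn by total FPKM, in which a read on a short gene weighs more. Such a trend, and higher values of short genes, therefore follow in part from how the sets were drawn. Over 12063 protein-coding genes at or above a mean FPKM of 1, the median log2 difference (smaller minus larger set) was 0.46 for the shortest and -0.49 for the longest of 5 equal classes of length. The corresponding medians by GC content were -0.34 in the lowest and 0.38 in the highest of 5 classes. C1qa (1040 bases, GC 59.5%), C1qb (1088 bases, 57.4%) and C1qc (1931 bases, 57.5%) are in the shortest class by length and the highest by GC, and Serping1 (2325 bases, 52.3%) is also in the shortest class. C3 and C4b, of 5143 and 5695 bases, had values of -0.16 and -0.06. Total FPKM was 338334 to 348597 in the smaller set and 277116 to 298301 in the larger, by which they were drawn. Higher summed FPKM of a marker list therefore follows in part from the split. The summed microglial markers ran from 84.7 to 96.0 in the smaller set and from 85.6 to 94.7 in the larger, with 4 of 10 genes higher and 4 lower. Of the other 11 marker lists, 7 had higher sums in the smaller set without overlap: border macrophages (5.03 to 7.91 against 2.60 to 4.64), choroid plexus (840 to 1127 against 357 to 777), meninges (23.0 to 28.4 against 15.8 to 19.6), endothelium (117 to 139 against 76.1 to 103), astrocytes (738 to 791 against 642 to 715), neurons (1020 to 1113 against 879 to 951) and oligodendrocytes (1378 to 1684 against 1108 to 1355). Within these lists single genes often went both ways at an adjusted p under 0.05 by limma, with 2 of 6 border macrophage genes higher and 1 lower, 3 of 6 choroid plexus genes higher and 3 lower, 2 of 5 endothelial genes higher and 1 lower, 3 of 7 astrocyte genes higher and 4 lower, and 3 of 6 neuronal genes higher and 3 lower. In meninges 5 of 7 and in oligodendrocytes 5 of 6 were higher and 0 lower. Erythroid sums were 123 to 204 against 32.9 to 189, with 5 of 5 genes higher, and the sums of neutrophils, monocytes and liver overlapped. The part of length, GC content, these cell types and blood in the C1q difference was not tested.

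**Figure D3:**
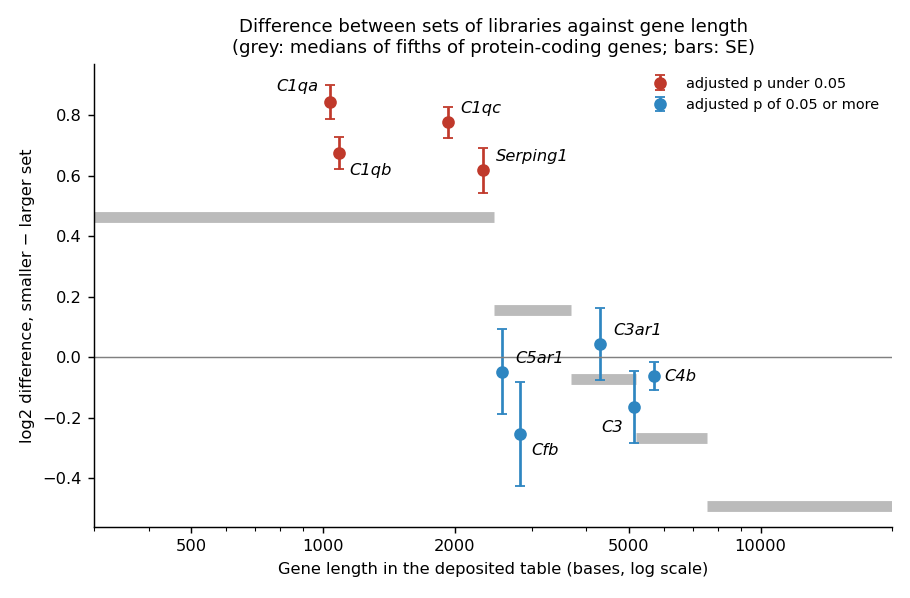
Log2 difference of the 9 members between the smaller and the larger set of libraries (y axis, points with SE) against gene length in bases (x axis, log scale); grey bars are the medians of 5 equal groups of protein-coding genes by length. C1qa, C1qb, C1qc and Serping1 lie between 0.62 and 0.84, above the median of 0.46 of the shortest genes, and the other 5 members lie between -0.25 (Cfb) and 0.04 (C3ar1).

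Within the larger set, the A and B chains varied together from mouse to mouse. After group means were subtracted, C1qa and C1qb had a Pearson r of 0.80 over 18 mice (permutation p = 8e-05, adjusted over 36 pairs 0.0029) and a Spearman rho of 0.79 (permutation p = 0.00015, adjusted 0.0054). Without the 2 mice farthest from the median of C1qa, r was 0.79. C1qc followed them less closely. Its r with C1qa was 0.59 (permutation p = 0.0084, adjusted 0.15), with a rho of 0.41 (permutation p = 0.092, adjusted 0.47), and r was 0.28 without the 2 farthest mice, so that this relation rests on those mice. Of the 36 pairs of members, 5 had an unadjusted p under 0.05 and 1 passed the adjustment. The ratio of C1qa to C1qb was 1.03 ± 0.0565 in the larger set and 1.15 ± 0.0770 in the smaller set, and that of C1qc to C1qa was 0.441 ± 0.0331 and 0.424 ± 0.0250 (SD, n = 18 and 6).

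Over the same 18 mice and among genes averaging 1 FPKM or more, the genes most like each member were ranked by r, as a description. Those most like C1qa were Taf10 (r = 0.92), Tmem205 (0.91) and Hras (0.88), those most like C1qb were Atf4 (0.91), Tsc22d1 (0.87) and Habp4 (0.87), and those most like C1qc were Rnf7 (0.94), Lars2 (0.90) and Snhg8 (0.86). For Serping1 they were Scarb1, Abt1 and Esd (0.87 to 0.90), and for C4b they were Eefsec, Tbccd1 and Pgp (0.81 to 0.86). For the rarer members the highest r was lower. The genes were Mir1198, Ppp1r2 and Cnep1r1 for C3ar1 (0.75 to 0.84) and Otud7b, Sfswap and Rpusd4 for C5ar1 (0.77 to 0.84). Those for Cfb were Plpp1, Grid1 and Osbpl10 (0.79 to 0.81), and those for C3 were Zfp317, Rpa2 and AI429214 (0.75 to 0.77). Each is among the best of 13648 or 13649 genes ranked over 18 mice, so a high r can come from the ranking alone. The spread of C3, C3ar1 and C5ar1 within groups was also close to their counting error. The 18 points share 1 table and library set, and their depth ran from 16645396 to 22464979 reads.

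No complement gene passed an adjusted p of 0.05 between groups. Across the 27286 genes tested with limma, the share called at that level was 0% in each of the 4 comparisons and for the interaction. At an unadjusted p under 0.05, 2 of 9 members were called with angiotensin II against vehicle (C5ar1 and Cfb, both higher), where 2.21% of all genes were. With angiotensin II + AEC against angiotensin II, 1 member was called (C3ar1, lower), against 2.54% of genes. With vehicle + AEC against vehicle, 1 was called (C5ar1, higher), against 2.41% of genes. With angiotensin II + AEC against vehicle + AEC, 0 of 9 were, against 2.66% of genes. The median log2 difference of the members was 0.02, -0.01, -0.05 and 0.00 in these comparisons, and that of all genes was 0.02, -0.02, 0.01 and -0.01. No member had groups that did not overlap, which held for 0.0623%, 0.0990%, 0.0623% and 0.0843% of genes, respectively. The comparisons of angiotensin II and of vehicle + AEC with vehicle share the vehicle mice, and both comparisons with angiotensin II alone share those mice.

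**Figure D4:**
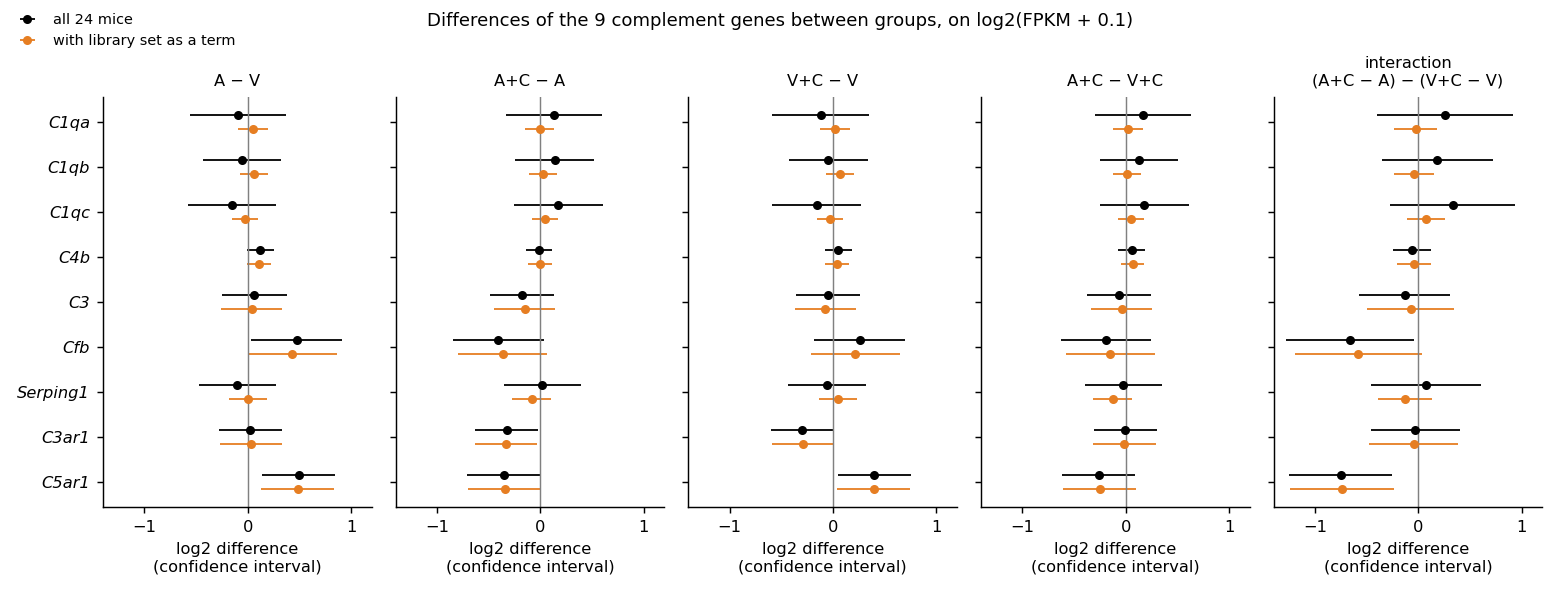
Log2 difference of each member on log2(FPKM + 0.1) (x axis, points with 95% intervals) in the 4 comparisons and the interaction, where V is vehicle, A is angiotensin II and +C marks AEC; black is the fit of all 24 mice and orange the fit with the library set as a term. The intervals of the C1q genes and Serping1 narrow with the set as a term, while those of C5ar1 and C3ar1 change little; the interval of the Cfb interaction goes from -1.28 to -0.05 to -1.20 to 0.04.

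C5ar1, the receptor for C5a on myeloid cells, had the lowest unadjusted limma p-value of the members with angiotensin II against vehicle and for the interaction. Its FPKM was 0.481, 0.426, 0.329, 0.276, 0.226 and 0.290 in vehicle replicates 1 to 6, with a mean of 0.338 ± 0.0970 (SD, n = 6). The mean was 0.511 ± 0.0965 with angiotensin II, with values from 0.378 to 0.642 and a median of 0.520. All 6 mice given angiotensin II lay above the vehicle median, 3 of them lay above every vehicle mouse, and the groups overlapped. The difference was 0.49 on the log2(FPKM + 0.1) scale (SE 0.171, 95% interval 0.14 to 0.85), with an unadjusted p of 0.0084, an adjusted p of 0.994 by limma, and a two-sided exact permutation p of 0.0152. The larger set of libraries alone gave 0.33 (unadjusted p = 0.094, limma), and the fit with the set as a term gave 0.48 (unadjusted p = 0.0093, limma).

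With the cells, mean C5ar1 was higher than without them in vehicle mice and lower than without them in mice given angiotensin II. The mean FPKM was 0.473 ± 0.0915 with vehicle + AEC (0.374 to 0.620, median 0.469), and all 6 of these mice lay above the vehicle median. With angiotensin II + AEC it was 0.382 ± 0.0968 (0.284 to 0.522, median 0.366), and 1 of 6 mice lay above the median of angiotensin II alone. The difference was 0.40 for vehicle + AEC against vehicle (SE 0.171, 95% interval 0.05 to 0.75, exact permutation p = 0.0325) and -0.35 for angiotensin II + AEC against angiotensin II (SE 0.171, interval -0.70 to 0.00, exact permutation p = 0.0433, unadjusted limma p = 0.051). The first call was lost without any 1 of vehicle replicates 4, 5 and 6 and vehicle + AEC replicates 1 and 3, at 0.32 to 0.37, and in the larger set of libraries alone, at 0.31 (limma unadjusted p = 0.115). The interaction, which is the second difference minus the first, was -0.75 (SE 0.241, 95% interval -1.25 to -0.25). Its unadjusted p was 0.0049 and its adjusted p 0.931 by limma, and 2 of 9 members (C5ar1 and Cfb) were called at an unadjusted p under 0.05 against 2.54% of all genes. It was -0.75 in the larger set alone and -0.74 with the set as a term. C5ar1 is among the genes that the study named as higher with angiotensin II on these same mice, so its direction there is not independent evidence.

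C5ar1 rested on few reads, 10 to 31 per mouse. Over the 18 mice of the larger set the SD within groups was 21.6% of the mean, and the error expected from counting alone at the mean of 21.7 reads was 21.5%. Neutrophils carry C5ar1, and 3 of 8 neutrophil marker genes were also called higher with angiotensin II at an unadjusted p under 0.05. The summed FPKM of that list was 5.39 to 14.1 with vehicle, 6.77 to 25.5 with angiotensin II, 7.23 to 15.5 with vehicle + AEC and 9.98 to 49.7 with angiotensin II + AEC. Of these 8 genes, 2 were called higher and 0 lower with angiotensin II + AEC against angiotensin II, 0 with vehicle + AEC against vehicle, and 7 higher with angiotensin II + AEC against vehicle + AEC. Of the 4 monocyte markers, 1 was called higher with angiotensin II, 1 lower with angiotensin II + AEC against angiotensin II, 1 lower with vehicle + AEC against vehicle and 3 higher with angiotensin II + AEC against vehicle + AEC. Of the 10 microglial markers, 0 were called in any of the 4 comparisons. Of all genes, 2.21% were called with angiotensin II against vehicle and 2.54% with angiotensin II + AEC against angiotensin II. The shares were 2.41% with vehicle + AEC against vehicle and 2.66% with angiotensin II + AEC against vehicle + AEC. A count of 0 of 10 is near these shares. The part of neutrophils or monocytes in the C5ar1 values was not tested.

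C3ar1, the receptor for C3a, had lower means in both groups that received cells. The FPKM of vehicle mice was 0.365 to 0.600 (mean 0.494 ± 0.0793) and that of mice given angiotensin II was 0.415 to 0.614 (mean 0.504 ± 0.0748, SD, n = 6 each). With vehicle + AEC it was 0.312 to 0.485 (mean 0.384 ± 0.0666), and with angiotensin II + AEC it was 0.242 to 0.505 (mean 0.386 ± 0.0876). In each case 4 of the 6 mice given cells lay below every mouse of the matching group without cells. The log2 difference was -0.32 for angiotensin II + AEC against angiotensin II (SE 0.148, 95% interval -0.63 to -0.02, limma unadjusted p = 0.038 and adjusted p = 1, exact permutation p = 0.0281). It was -0.30 for vehicle + AEC against vehicle (SE 0.148, interval -0.60 to 0.01, unadjusted p = 0.057, adjusted p = 0.995, exact permutation p = 0.0260), and these comparisons share no mice. The larger set alone gave -0.40 (limma unadjusted p = 0.028) and -0.36 (limma unadjusted p = 0.046). The first call was lost without any 1 of angiotensin II replicates 3, 4 and 5 and angiotensin II + AEC replicates 2 and 3, at -0.31 to -0.23.

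Without cells, angiotensin II and vehicle differed in C3ar1 by 0.02 on the log2 scale (95% interval -0.28 to 0.33), and with cells by -0.0048 (interval -0.31 to 0.30). The interaction was -0.03 (SE 0.209). C3ar1 had 20 to 56 reads per mouse, with an SD within groups of 16.9% in the larger set against 16.5% from counting alone. Microglia, which carry this receptor, had a summed marker level that overlapped in all 4 groups. In either of the comparisons with cells, 0 of 10 microglial and 0 of 6 border macrophage markers were called. These counts are near the shares of all genes called, 2.54% with angiotensin II + AEC against angiotensin II and 2.41% with vehicle + AEC against vehicle. Of the 4 monocyte markers, 1 was called lower in each of these comparisons. Of the 8 neutrophil markers, 2 were called higher with angiotensin II + AEC against angiotensin II and 0 with vehicle + AEC against vehicle. The part of these cells in the C3ar1 values was not tested.

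**Figure D5:**
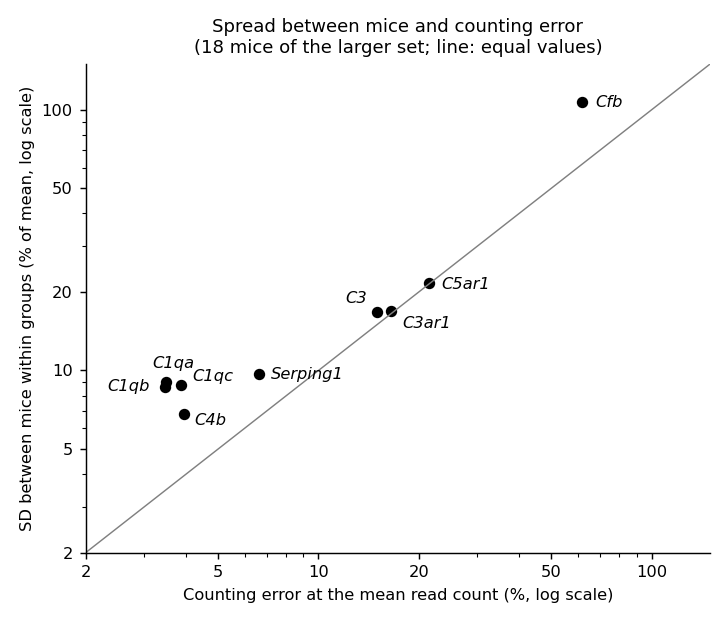
SD between mice of the same group as a percentage of the mean (y axis, log scale) against the error expected from counting at the mean number of reads (x axis, log scale) for the 9 members in the 18 mice of the larger set; the line marks equal values. C5ar1, C3ar1 and C3 lie on or near the line, and the C1q genes lie above it at 8.64% to 9.03% against 3.46% to 3.88%.

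Cfb, which encodes factor B, was near the limit of detection. It had 5 reads in the 6 vehicle mice together, with 0 reads in 3 of them. The mice given angiotensin II had 26 reads, of which 14 came from replicate 1 alone, and the other 5 mice had 0 to 5. With vehicle + AEC there were 12 reads, 1 to 3 in each mouse, and with angiotensin II + AEC there were 8, 0 to 4 in each. A level of 3 reads or fewer cannot be told from 0 here, so all vehicle and vehicle + AEC mice were at or below the floor of 3 reads per library, which covers counting error only. Angiotensin II replicates 2, 5 and 6 and all angiotensin II + AEC mice but replicate 2 were also at or below this floor.

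The mean FPKM of Cfb was 0.0158 ± 0.0186 with vehicle and 0.0722 ± 0.0783 in the angiotensin II mice (SD, n = 6 each). The latter was 0.0445 ± 0.0435 over the 5 mice without replicate 1. The fitted log2 difference was 0.48 (SE 0.212, unadjusted p = 0.035, adjusted p = 0.994 by limma), and the two-sided exact permutation p was 0.104. Without replicate 1 it was 0.28 (limma unadjusted p = 0.13), and the call was also lost without any 1 of angiotensin II replicates 3 and 4 and vehicle replicates 2, 5 and 6, at 0.42 to 0.44. The fitted value depended on the pseudocount: it was 0.08 with 1 and 1.37 with 0.01, so no fold change is given. The interaction of -0.66 (SE 0.299, unadjusted p = 0.037, adjusted p = 0.931 by limma) had the same limits, and it was -0.47 without replicate 1 (unadjusted p = 0.071, limma) and -0.58 with the library set as a term (unadjusted p = 0.063, limma), so the call was lost. On the transcript annotation, 79.5% of the exonic bases of Cfb are also exonic in Gm20547, a gene model on the same strand, which was listed at 0 in every mouse. How reads in the shared bases were assigned is not stated in the sources used here, so Cfb may be undercounted. Cfb, too, is among the genes that the study named as higher with angiotensin II on these mice. The study also named it as lower with angiotensin II + AEC than with angiotensin II. According to its methods, the study called genes with DESeq at an adjusted p under 0.05. The limma fit used here called 0 of 27286 genes at that level, so the 2 results rest on unlike tests and thresholds. Here the fitted log2 difference for that comparison was -0.41 (SE 0.212, limma unadjusted p = 0.067, exact permutation p = 0.186), and it was not called.

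C4b, the mouse gene for complement component C4, was measured precisely. Its FPKM was 5.92, 5.90, 5.30, 5.07, 5.27 and 5.33 in vehicle replicates 1 to 6 and 6.56, 6.09, 5.71, 5.85, 5.40 and 6.12 in the angiotensin II replicates. All 6 mice given angiotensin II exceeded the vehicle median of 5.31, 3 exceeded every vehicle mouse, and the groups overlapped. The means were 5.47 ± 0.355 and 5.96 ± 0.395 (SD, n = 6 each), a log2 difference of 0.12 (SE 0.0628, 95% interval -0.01 to 0.25), with a limma unadjusted p of 0.065, an adjusted p of 0.994 and an exact permutation p of 0.0476. With AEC the means were 5.67 ± 0.282 in vehicle and 5.91 ± 0.520 in angiotensin II mice, and the difference of the latter from angiotensin II alone was -0.01 (95% interval -0.14 to 0.12). Of its 100-base words, 16.5% also occur in C4a, its neighbouring near-copy, and reads there may be split. C4a was at 0.426 ± 0.0516, 0.492 ± 0.105, 0.418 ± 0.121 and 0.371 ± 0.0457 in vehicle, angiotensin II, vehicle + AEC and angiotensin II + AEC. Its difference between angiotensin II + AEC and angiotensin II was -0.32 (SE 0.157, exact permutation p = 0.0173, limma unadjusted p = 0.055, adjusted p = 1).

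C3, the component on which all pathways converge, was low in every group, with 29 to 68 reads per mouse. Mean FPKM was 0.434 ± 0.0727 with vehicle, 0.458 ± 0.0742 with angiotensin II, 0.416 ± 0.0625 with vehicle + AEC and 0.399 ± 0.106 with angiotensin II + AEC (SD, n = 6 each). The 95% interval of the log2 difference was -0.25 to 0.38 for angiotensin II against vehicle and -0.49 to 0.13 for angiotensin II + AEC against angiotensin II. Changes within these bounds remain compatible with the values. C2, the partner of C4b and neighbour of Cfb, was at 0.353 to 0.383 in the group means and was called in none of the comparisons.

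For the C1q genes and Serping1, the precision of the group comparisons depended on the library set. Angiotensin II and vehicle differed in C1qa by -0.09 (SE 0.225, 95% interval -0.55 to 0.38) over all 24 mice, and by 0.05 (SE 0.0691, interval -0.09 to 0.19) with the set as a term. The corresponding values with the set as a term were 0.06 for C1qb (interval -0.08 to 0.19), -0.02 for C1qc (interval -0.15 to 0.11) and 0.00 for Serping1 (interval -0.18 to 0.19). For angiotensin II + AEC against angiotensin II the same fit gave -0.01 for C1qa (interval -0.15 to 0.14), 0.03 for C1qb (interval -0.11 to 0.16), 0.05 for C1qc (interval -0.08 to 0.17) and -0.08 for Serping1 (interval -0.27 to 0.10). In the larger set alone, the largest difference of these 4 genes over the 4 comparisons was for Serping1 with angiotensin II + AEC against vehicle + AEC, at -0.19 (interval -0.37 to 0.00, limma unadjusted p = 0.0501).

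The other genes of the pathway were taken as a list of 49, of which 42 could be tested and 18 had a mean FPKM of at least 1. None passed an adjusted p of 0.05 with limma in any comparison. At an unadjusted p under 0.05, 1 of 42 was higher and 0 lower with angiotensin II against vehicle, 0 higher and 1 lower with angiotensin II + AEC against angiotensin II, 0 higher and 1 lower with vehicle + AEC against vehicle, and 0 with angiotensin II + AEC against vehicle + AEC. Over all genes the shares called were 2.21%, 2.54%, 2.41% and 2.66%, so 1 of 42 is near that background, and the genes are named as values only. The gene higher with angiotensin II was Cd59b, an inhibitor of the terminal complex, at 1.27 ± 0.255 against 0.915 ± 0.222 (log2 difference 0.45, SE 0.194, exact permutation p = 0.0260). The gene lower with angiotensin II + AEC was C5ar2, a further receptor for C5a, at 0.139 ± 0.0677 against 0.255 ± 0.0481 with angiotensin II (log2 difference -0.61, SE 0.177, exact permutation p = 0.00866, limma adjusted p = 1). C6, of the terminal complex, was lower with vehicle + AEC, at a mean FPKM of 0.00244 ± 0.00598 against 0.0208 ± 0.0162 with vehicle. The log2 difference of C6 was -0.23 (SE 0.105, exact permutation p = 0.0281, limma adjusted p = 0.995). C6 had a median of 0 reads over all mice, with 11 mice above 0. That median is under the floor of 3 reads used for Cfb, so no change in C6 is read from this call. For the interaction, C5ar2 (-0.60), Cd59b (-0.59) and C8b (-0.31) were called, against 2.54% of all genes, with an adjusted p of 0.931 each by limma. C8b had a mean FPKM of 0.0110 over all mice and a median of 0 reads, with 11 mice above 0, so its value has the same limit as that of C6. Cd59b was also higher in the smaller set of libraries, by 0.56 on the log2 scale (limma adjusted p = 6.9e-05), whereas C5ar2 was at 0.12 (adjusted p = 0.53).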

How the data were processed

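RNA from the brains of 24 mice was sequenced. The authors deposited 1 table of FPKM values, divided by gene length and library size, with a column per mouse; groups and replicate numbers came from the sample labels. According to the methods, reads were mapped to the Ensembl mouse genome, and the submitters' processing notes list GRCm38, mm10 and DESeq 1.10.1; no aligner, read counter or strand setting is given in the sources used here. Libraries were poly-A selected. Reads were recovered from the smallest FPKM step per mouse, and 100% of values were whole within 0.05 of a read, giving 16536449 to 25308700 reads per mouse. No pair of mice of a group agreed within sampling noise.

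Log2(FPKM + 0.1) of genes above 0 in at least 6 mice was tested with limma 3.58.1 in R 4.3.3, with all groups fitted together, a trended eBayes and Benjamini-Hochberg adjustment over 27286 genes. Single genes were also tested by two-sided exact permutation of 6 against 6 mice, whose smallest possible p is 0.00216. Correlations between members used 100000 permutations in the larger set of libraries; they were not computed in the smaller set, where 2 groups hold 1 mouse. Python 3.11.15 with pandas 2.3.3, scipy 1.17.1 and matplotlib 3.10.9 was used for the rest. Alternatives were pseudocounts of 1 and 0.01, fits of the compared groups only, no filter, genes averaging 1 FPKM or more, a replicate block, median-ratio rescaling, voom on recovered reads, array weights, the library set as a term, the larger set alone, and each mouse left out. The fit was also run on simulated reads that held no difference between library sets. That run does not cover the sets, and no conclusion is drawn from it.

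The members, gene lists and tests were chosen with earlier results of these data known. All 9 members are named, with other complement genes of unadjusted p under 0.05 (at most 5 per comparison), C4a and C2, and the 3 genes most like each member. Marker lists other than those of neutrophils and monocytes had at most 1 gene called in any group comparison. Protein sequences were not analysed here.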

Additional observations from a re-analysis of the deposited data

Results flagged for a closer look

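In 36 groups of 6 mice (9 genes in 4 groups), 4 held a single mouse whose distance from the next, divided by the range of the group, exceeded Dixon's critical value for 6 samples; chance alone gives about 1 in 20 groups. C1qa was 66.7 FPKM in angiotensin II replicate 5 and 77.5 FPKM in vehicle + AEC replicate 6. C1qb was 67.3 FPKM in vehicle + AEC replicate 6, and C1qc was 28.2 FPKM in angiotensin II replicate 5. Both mice are the only members of the smaller set of libraries in their groups.

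At an unadjusted p under 0.05, the interaction was called for 2 of 9 members, against 2.54% of all genes. The limma interaction was -0.75 for C5ar1 and -0.66 for Cfb on the log2(FPKM + 0.1) scale, with an adjusted p of 0.931 for each. Cfb had 0 to 14 reads per mouse. Its call was lost with the library set as a term (limma unadjusted p = 0.063) and in the larger set alone (limma unadjusted p = 0.15).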

How the results depend on the processing

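At 10 to 31 reads per mouse for C5ar1 and 0 to 14 for Cfb, counting error limits these results, and no adjusted p passed 0.05 for any member in any comparison of the main fit. Over all 27286 genes, the number with an unadjusted limma p under 0.05 changed with the setting. In the order below, with the interaction last, the main fit called 604, 694, 658, 725 and 692 genes. Array weights called 1254, 1282, 1331, 1303 and 1282, and the larger set alone called 1053, 1259, 1140, 1164 and 1146. The number of members with an unadjusted p under 0.05 depended on the setting, and the cause was not tested except where fewer genes or mice entered. For angiotensin II against vehicle (2 members), it was 1 with a pseudocount of 0.01 or with only the compared groups, 0 in the larger set of libraries alone and 0 with a mean FPKM of at least 1, which leaves 5 members tested. Leaving out 1 mouse gave 1 to 3, and it was 1 when vehicle replicate 5 or 6, or replicate 1, 3 or 4 of angiotensin II, was dropped. For angiotensin II + AEC against angiotensin II (1 member), it was 2 with a pseudocount of 1, voom, array weights or the larger set alone, and 0 with a mean FPKM of at least 1 or only the compared groups. Leaving out 1 mouse gave 0 to 2, with 0 without angiotensin II + AEC replicate 3. For vehicle + AEC against vehicle (1 member), it was 2 with a pseudocount of 1, voom or array weights, and 0 with a mean FPKM of at least 1 or only the compared groups. Leaving out 1 mouse gave 0 to 2, with 0 without vehicle replicate 4, vehicle replicate 6 or vehicle + AEC replicate 3. For angiotensin II + AEC against vehicle + AEC (0 members), it was 1 with array weights or the larger set alone, and leaving out 1 mouse gave 0. For the interaction (2 members), it was 1 with a pseudocount of 1, array weights, the set as a term or the larger set alone, and 0 with a mean FPKM of at least 1. Leaving out 1 mouse gave 1 to 2. It was 1, with the call of Cfb lost and that of C5ar1 kept, without any of vehicle replicates 2, 5 and 6, angiotensin II replicates 1, 3 and 4, vehicle + AEC replicate 4 and angiotensin II + AEC replicates 1, 3 and 6.

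The C5ar1 interaction kept its direction and an unadjusted p under 0.05 under every alternative run in which it was tested. Over all combinations of member, comparison and alternative, a difference called in the main fit stayed called in 115 and lost the call with the same direction in 39, and no called difference changed direction. Differences not called changed sign in 76 combinations and became called in 29.

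The replicate numbers were not taken as pairs, since the labels give them no meaning and the lowest correlation of same-numbered mice was over 0.1 only for numbers 1, 2 and 4. All mice of the smaller set of libraries were numbered 5 or 6, so the numbers are not independent of the library set. The median correlation was 0.18 to 0.38 over the 6 numbers, the lowest value was -0.22, and 7 of 24 mice correlated best with a mouse of their own number. The number as a replicate block called more of the 27286 genes than the main fit at an unadjusted limma p under 0.05. For angiotensin II against vehicle it called 950 against 604 genes, and for the interaction 1416 against 692. With this block, 3 members were called for angiotensin II against vehicle, C4b in addition (0.12, limma unadjusted p = 0.044), and 3 for the interaction, C1qc in addition (0.33, limma unadjusted p = 0.033). For angiotensin II + AEC against angiotensin II, 1 was called, but it was C5ar1 (-0.35, with an unadjusted p just under 0.05) in place of C3ar1 (-0.32, unadjusted p = 0.053). For vehicle + AEC against vehicle, 1 was called, C5ar1 as before, and for angiotensin II + AEC against vehicle + AEC, 0. In the larger set alone, the 1 member called for vehicle + AEC against vehicle was C3ar1 in place of C5ar1.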
